A study of Rattus norvegicus with 12 samples.

Results

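Atf4 and 9 genes that its protein product is known to activate were examined across the 4 groups of the study. The other genes were Asns, Phgdh, Psat1, Shmt2, Mthfd2, Slc7a11, Chac1, Trib3 and Sesn2. They were picked out by gene symbol from the deposited gene table, in which 10 of 18483 genes were members, and all 10 were among the 13967 genes that passed the filter on low counts. RNA had been sequenced from NRVMs (neonatal rat ventricular myocytes, the beating muscle cells of the newborn heart ventricle) of Sprague-Dawley rats, with 3 biological replicates per group and 12 samples in all. The siNeg cells carried a negative control siRNA, and the siSlc39a2 cells carried 1 siRNA sequence directed against Slc39a2, which encodes a zinc transporter. The siNeg PE and siSlc39a2 PE cells were given PE (phenylephrine, an adrenergic agonist that makes cardiomyocytes grow) for 36 h, starting 12 h after the same transfections. These times are those of the sample labels, and the culture methods of the study give a longer PE treatment. Every group was grown in DMEM with insulin, transferrin and selenium, and no group went without transfection. With 1 siRNA sequence, loss of Slc39a2 and any other action of that sequence cannot be told apart.

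The samples held between 24065539 and 28603854 expected counts in total. Slc39a2 had 2.06 ± 0.229 CPM (counts scaled to the normalised library size, SD, n = 3) in siNeg and 0.392 ± 0.324 CPM (SD, n = 3) in siSlc39a2, and the log2 fold change was -2.35 (SE 0.46, adjusted p = 0.00098 from edgeR). With PE it had 5.71 ± 1.92 and 1.13 ± 0.26 CPM (SD, n = 3), with -2.33 on the log2 scale (SE 0.38, adjusted p = 0.000224 from edgeR). All 8 cardiomyocyte markers were detected, and they summed to 42323.9 to 43606.8 CPM in siNeg, 32375.6 to 33585.6 in siSlc39a2, 41223.9 to 44853.6 in siNeg PE and 36861.5 to 37663.7 in siSlc39a2 PE. With knockdown, 4 of the 8 fell without PE and 3 with PE, by edgeR, where 26.4% and 28.1% of all genes tested did. The myocytes had been enriched by centrifugation in Percoll, and markers of other cells were present as well. The 8 fibroblast markers summed to 13859.1 to 18345.3 CPM in siNeg, 5337.6 to 5643.1 in siSlc39a2, 9170.9 to 11754.2 in siNeg PE and 3582.1 to 4948.6 in siSlc39a2 PE. By edgeR, 1 of these 8 rose and 6 fell with knockdown, both without PE (22.8% and 26.4% of all genes tested) and with PE (29.2% and 28.1%). With PE, 2 rose and 4 fell in siNeg cells (24.0% and 25.7%), and 3 rose and 4 fell in siSlc39a2 cells (30.7% and 29.3%). The 5 macrophage markers in the table summed to 81.6 to 120.1 CPM in siNeg and 30.1 to 36.4 CPM in siSlc39a2 PE, with 38.5 to 54.5 CPM in the other groups. The 4 smooth muscle markers summed to 751.6 to 760.7 CPM in siSlc39a2 and 1182.5 to 1983.7 CPM elsewhere, and the 5 endothelial markers to 5.22 to 9.44 CPM in all groups. No marker of any list was at 0 throughout a group, and the part of these cells in the results below was not tested. In RNA from whole cultures, fewer cells of a type and less RNA per cell cannot be told apart.

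When amino acids run short, when proteins misfold in the endoplasmic reticulum or when double-stranded RNA or haem deficiency is sensed, dedicated kinases phosphorylate the translation factor eIF2. General protein synthesis then slows while the Atf4 mRNA is translated better, so that the amount of ATF4 protein need not follow the amount of its mRNA. ATF4 binds DNA as a dimer with C/EBP family proteins and switches on genes for amino acid uptake and synthesis, serine and one-carbon metabolism, redox defence and the feedback that ends the response. The heart uses the same programme in mitochondrial and nutrient stress, and only RNA was measured here.

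Promoter windows of all 10 genes were found in the RefSeq table of the GRCr8 build, each reaching from 250 bases before to 50 bases after the gene's start. These positions are not on Rnor_6.0, the build named for the deposited files. The core letters of the C/EBP-ATF response element, TGATGNAA, read as TTNCATCA on the opposite strand, were searched on both strands. They occurred in the windows of Chac1 and Trib3, 2 of the 10 genes, and in 1332 of all 33465 windows (3.98%). The Chac1 match, TTGCATCA, began 167 bases before the start and the Trib3 match, TTACATCA, 21 bases before it, both with the element on the opposite strand. Phgdh, Atf4 and Shmt2 were, like Chac1, Trib3, Psat1 and Sesn2, lowest by group mean in siSlc39a2 PE. Their windows had no match and are not shown. The windows of Chac1 and Trib3 are shown with the match in capitals, and those of Psat1 and Sesn2 are shown as examples without a match. The windows lie at chr3:126795881-126796180 (Chac1, plus strand), chr3:161275484-161275783 (Trib3, minus strand), chr1:222645359-222645658 (Psat1, minus strand) and chr5:150005206-150005505 (Sesn2, minus strand), and are written 5′ to 3′ along the gene.
Chac1: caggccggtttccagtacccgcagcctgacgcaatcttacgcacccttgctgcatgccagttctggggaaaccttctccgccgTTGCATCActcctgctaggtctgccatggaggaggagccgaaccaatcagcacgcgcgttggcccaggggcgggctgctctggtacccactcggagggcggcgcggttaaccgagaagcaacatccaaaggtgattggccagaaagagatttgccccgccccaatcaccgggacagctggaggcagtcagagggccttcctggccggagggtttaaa
Trib3: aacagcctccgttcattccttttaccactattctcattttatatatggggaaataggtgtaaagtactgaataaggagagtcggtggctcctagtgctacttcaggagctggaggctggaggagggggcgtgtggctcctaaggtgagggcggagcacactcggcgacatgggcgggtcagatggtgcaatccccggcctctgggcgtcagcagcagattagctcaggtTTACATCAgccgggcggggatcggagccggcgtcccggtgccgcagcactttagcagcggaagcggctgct
Psat1: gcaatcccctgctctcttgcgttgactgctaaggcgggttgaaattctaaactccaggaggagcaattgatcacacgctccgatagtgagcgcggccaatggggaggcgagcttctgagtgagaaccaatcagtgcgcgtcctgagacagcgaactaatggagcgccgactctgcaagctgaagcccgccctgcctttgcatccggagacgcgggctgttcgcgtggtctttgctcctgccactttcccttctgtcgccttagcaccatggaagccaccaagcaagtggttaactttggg
Sesn2: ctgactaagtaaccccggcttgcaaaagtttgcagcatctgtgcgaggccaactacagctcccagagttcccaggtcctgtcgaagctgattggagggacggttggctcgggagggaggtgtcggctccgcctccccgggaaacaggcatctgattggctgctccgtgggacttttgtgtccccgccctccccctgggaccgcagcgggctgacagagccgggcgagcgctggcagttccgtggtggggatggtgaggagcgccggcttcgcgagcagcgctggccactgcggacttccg
A match is a run of letters, not a shown binding site, and a window without one says only that these letters are not within it.

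Slc39a2 knockdown and PE each raised 3 of the 10 genes when applied alone, which is near the shares of all genes tested (22.8% and 24.0%). Knockdown in the presence of PE lowered 6 of the 10, where 28.1% of all genes were lower. After knockdown without PE, 3 of the 10 genes rose (Atf4, Mthfd2 and Chac1) and the other 7 did not pass the test, while 49.2% of all genes tested were called, 22.8% as higher. With PE in siNeg cells, 3 rose (Asns, Mthfd2 and Slc7a11), while 49.7% of all genes were called, 24.0% as higher. In the presence of PE, knockdown lowered 6 of the 10 (Asns, Phgdh, Psat1, Chac1, Trib3 and Sesn2) and raised Mthfd2, while 57.3% of all genes were called, 28.1% as lower and 29.2% as higher. With PE in siSlc39a2 cells, 6 fell (Atf4, Phgdh, Psat1, Chac1, Trib3 and Sesn2) and 2 rose (Mthfd2 and Slc7a11), while 60.0% of all genes were called, 29.3% as lower and 30.7% as higher. A call stands for an adjusted p below 0.05 in the quasi-likelihood test of edgeR. By the samples themselves, 3 of the 10 genes were higher and 1 lower without overlap after knockdown without PE (27.9% and 30.6% of all genes tested), and 3 were higher and 2 lower with PE in siNeg cells (29.3% and 30.5%). With PE present, knockdown left 6 lower without overlap and Mthfd2 overlapping (31.7% of all genes were lower and 31.8% higher in this way), and PE in siSlc39a2 cells left 6 lower and 2 higher (32.6% and 32.5%). Median log2 fold changes of the 10 genes were 0.03, -0.07, -0.36 and -0.58 in this order of comparisons, beside -0.02, -0.01, 0.01 and 0.01 over all genes tested. Neighbouring comparisons share samples (the siNeg PE samples, for example, enter both the PE comparison in control cells and the knockdown comparison with PE), so their values are set side by side and not taken as separate evidence.

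In the main edgeR fit, of all 12 samples in 4 groups, the largest change of the 10 genes was -0.98 on the log2 scale, for Chac1 with PE in siSlc39a2 cells. None of the 10 genes passed an absolute log2 fold change of 1 together with an adjusted p below 0.05 in this fit. Of all genes tested, 9.78%, 6.6%, 11.6% and 10.5% did in the 4 comparisons. For 10 genes, a count of 0 is near these shares. The count was also 0 of 10 with an unadjusted p below 0.05 in place of the adjusted one, and with DESeq2. The single exception among the main edgeR fit, DESeq2 and limma was limma on log2(count + 1), which placed 1 gene past both limits for PE in siSlc39a2 cells. With 1 library left out, edgeR values in that comparison reached -1.08 for Chac1 and 1.04 for Slc7a11. Their adjusted p was at most 0.00016 and 0.0301 over all 14 alternatives of edgeR, DESeq2 and limma. At an unadjusted p below 0.05 with no limit on size, edgeR found 3, 3, 7 and 8 of the 10 genes. The share of all genes at this limit was not counted. At the stricter adjusted limit it was already 49.2%, 49.7%, 57.3% and 60.0%, so these counts do not set the 10 genes apart.

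**Figure D1:**
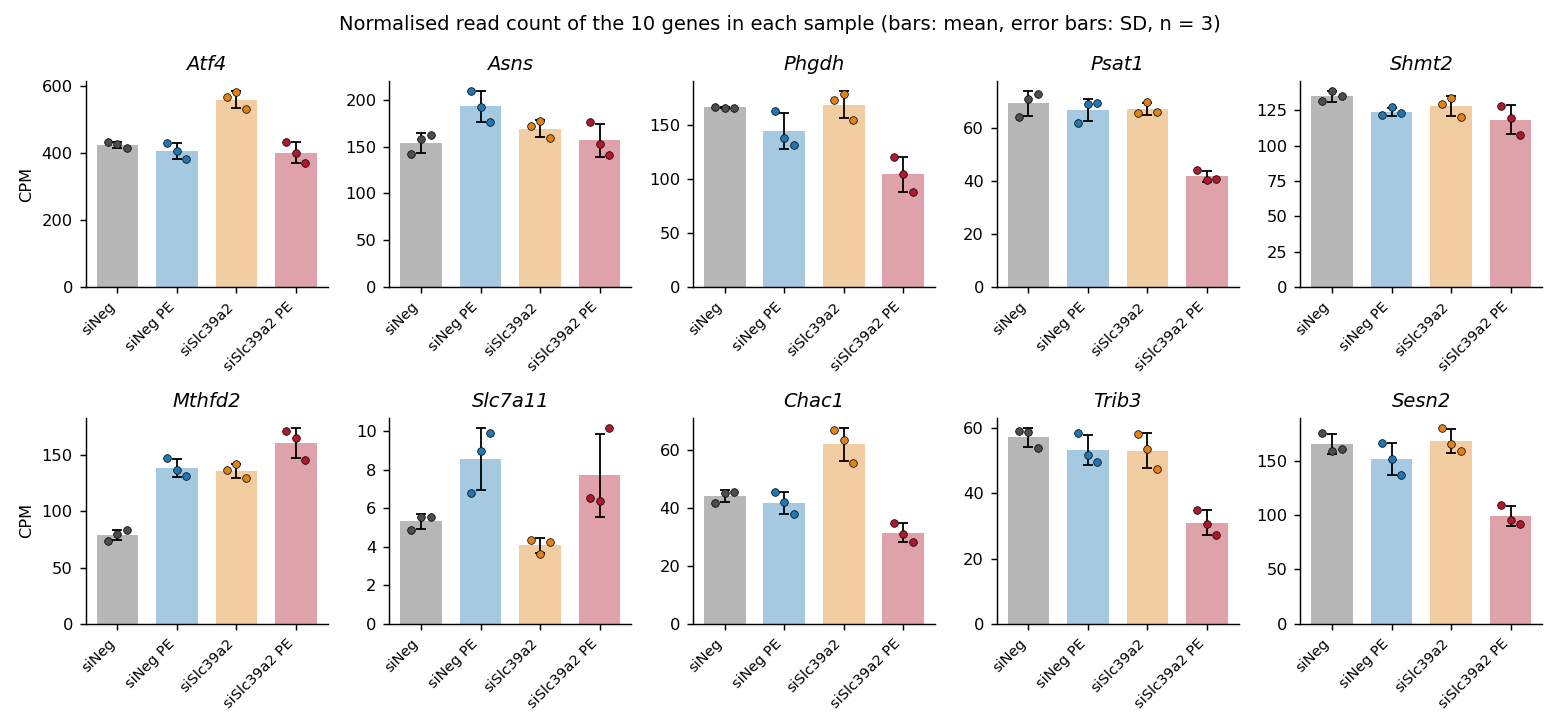
Normalised read count (CPM, vertical axes from 0) of the 10 genes in the 4 groups; points are the 3 samples, bars the mean and error bars the SD. Psat1, Phgdh, Trib3, Chac1 and Sesn2 had all 3 siSlc39a2 PE samples below every other sample, while Mthfd2 had all 3 siNeg samples below every other sample.

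Atf4 encodes the transcription factor itself. It had 434.4, 425.8 and 416.1 CPM in siNeg, 566.2, 582.5 and 531.6 in siSlc39a2, 429.3, 405.2 and 383.1 in siNeg PE, and 433.9, 399.8 and 370.8 in siSlc39a2 PE. The 3 siSlc39a2 samples stood above all others, and the remaining 3 groups overlapped. Knockdown without PE thus raised Atf4 by 0.40 on the log2 scale (SE 0.07, adjusted p = 0.000397 from edgeR), to 131.7% of siNeg. In siSlc39a2 cells PE lowered it by the log2 value of -0.48 (SE 0.07, adjusted p = 8.66e-05 from edgeR). Neither PE in siNeg cells (-0.07, adjusted p = 0.423) nor knockdown with PE (-0.02, adjusted p = 0.859) passed the test in edgeR. The expected count of Atf4 was a whole number in 0 of 12 samples, so that reads were shared with other sequences and its level is uncertain to that extent.

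Asns encodes asparagine synthetase, which makes asparagine from aspartate and glutamine. It had 142.1, 157.7 and 162.8 CPM in siNeg, 171.5, 176.8 and 158.8 in siSlc39a2, 209.5, 192.7 and 176.3 in siNeg PE, and 175.7, 152.6 and 141.2 in siSlc39a2 PE. The siNeg PE samples were all above the siNeg samples and above the siSlc39a2 PE samples, and the other pairs overlapped. PE raised Asns by 0.32 on the log2 scale in siNeg cells (SE 0.09, adjusted p = 0.0105 from edgeR), and knockdown with PE gave -0.30 (SE 0.09, adjusted p = 0.0117 from edgeR). In siSlc39a2 cells the PE value was -0.11 (95% confidence interval -0.31 to 0.08), and knockdown without PE gave 0.13 (95% confidence interval -0.06 to 0.33). The call for knockdown with PE was lost when siNeg PE replicate 1 was left out (-0.24, adjusted p = 0.0552 from edgeR) and when siSlc39a2 PE replicate 3 was (-0.23, adjusted p = 0.0538 from edgeR). Without siSlc39a2 PE replicate 1, the PE value in siSlc39a2 cells became a call (-0.22, adjusted p = 0.0488 from edgeR).

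Phgdh and Psat1 encode the enzymes of the first steps of serine synthesis from glycolysis, phosphoglycerate dehydrogenase and phosphoserine aminotransferase. Psat1 had 64.0, 70.9 and 72.9 CPM in siNeg, 65.5, 69.6 and 65.9 in siSlc39a2, 61.8, 68.8 and 69.4 in siNeg PE, and 44.2, 40.3 and 40.6 in siSlc39a2 PE. The first 3 groups overlapped, and the siSlc39a2 PE samples lay below all of them. Knockdown with PE lowered Psat1 to 62.5% of siNeg PE (log2 fold change -0.68, SE 0.07, adjusted p = 8.6e-06 from edgeR). PE lowered it to 62.2% of its level in siSlc39a2 cells (log2 fold change -0.68, SE 0.07, adjusted p = 1.02e-05 from edgeR). Either condition alone gave -0.05, with 95% confidence intervals of -0.21 to 0.11 for knockdown and -0.21 to 0.10 for PE.

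Phgdh had 166.9, 166.1 and 166.0 CPM in siNeg, 173.1, 179.2 and 154.7 in siSlc39a2, 163.4, 138.5 and 132.0 in siNeg PE, and 120.4, 105.1 and 88.0 in siSlc39a2 PE. Its siSlc39a2 PE samples too lay below all others, and all siNeg PE samples were below the siNeg samples. Knockdown with PE lowered Phgdh by the log2 value of -0.47 (SE 0.11, adjusted p = 0.00241 from edgeR), and PE in siSlc39a2 cells gave -0.69 (SE 0.11, adjusted p = 0.000165 from edgeR). PE in siNeg cells gave -0.20 (SE 0.11, adjusted p = 0.131 from edgeR), which became a call when siNeg PE replicate 1 was left out (-0.30, adjusted p = 0.0402 from edgeR). Knockdown without PE gave 0.02, with a 95% confidence interval of -0.21 to 0.25.

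Shmt2 and Mthfd2 encode mitochondrial enzymes that follow each other in one-carbon metabolism. Serine hydroxymethyltransferase 2 takes a one-carbon unit from serine, and Mthfd2 oxidises the folate that carries it. Shmt2 had between 107.7 and 138.7 CPM in all 12 samples and was called in none of the 4 comparisons by edgeR, with log2 fold changes of -0.08, -0.12, -0.06 and -0.11. At an unadjusted p below 0.05 it was called in none either, and the smallest of the 4 unadjusted p-values was 0.0957. PE in siSlc39a2 cells became a call for Shmt2 when siSlc39a2 PE replicate 1 (-0.19, adjusted p = 0.0392 from edgeR) or siSlc39a2 replicate 3 (-0.18, adjusted p = 0.0466 from edgeR) was left out.

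Mthfd2 had 74.1, 79.6 and 83.6 CPM in siNeg, 137.4, 141.9 and 129.6 in siSlc39a2, 147.4, 137.1 and 131.3 in siNeg PE, and 172.1, 165.5 and 145.8 in siSlc39a2 PE. All samples with PE, knockdown or both were above all siNeg samples, and the siSlc39a2 PE and siNeg PE samples overlapped. Knockdown alone raised Mthfd2 to 172.2% of siNeg (log2 fold change 0.78, SE 0.08, adjusted p = 3.12e-06 from edgeR), and PE alone raised it to 175.2% (log2 fold change 0.81, SE 0.08, adjusted p = 6.73e-06 from edgeR). On top of PE, knockdown added 0.22 (SE 0.08, adjusted p = 0.025 from edgeR), and on top of knockdown, PE added 0.24 (SE 0.08, adjusted p = 0.0141 from edgeR). The call for knockdown with PE was lost without siNeg PE replicate 2 (0.21, adjusted p = 0.0724 from edgeR), siNeg PE replicate 3 (0.18, adjusted p = 0.0945), siSlc39a2 PE replicate 1 (0.16, adjusted p = 0.112) or siSlc39a2 PE replicate 2 (0.20, adjusted p = 0.0817). That for PE in siSlc39a2 cells was lost without siSlc39a2 PE replicate 1 (0.17, adjusted p = 0.0972 from edgeR), siSlc39a2 PE replicate 2 (0.22, adjusted p = 0.0513) or siSlc39a2 replicate 3 (0.18, adjusted p = 0.0866). Mthfd2 was the only gene of the 10 called in all 4 comparisons.

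Slc7a11 and Chac1 act on cysteine and glutathione. Slc7a11 is the cystine importer of the xc- transporter, and Chac1 degrades glutathione in the cytosol. Slc7a11 had 4.86, 5.53 and 5.56 CPM in siNeg, 4.36, 3.62 and 4.25 in siSlc39a2, 6.78, 8.97 and 9.94 in siNeg PE, and 6.56, 6.38 and 10.2 in siSlc39a2 PE. Samples with PE were all above samples without it, and the siSlc39a2 samples were all below the siNeg samples. PE raised Slc7a11 by 0.69 on the log2 scale in siNeg cells (SE 0.19, adjusted p = 0.0104 from edgeR) and by 0.92 in siSlc39a2 cells (SE 0.19, adjusted p = 0.00142 from edgeR). Knockdown gave -0.38 without PE (SE 0.20, adjusted p = 0.127 from edgeR) and -0.15 with PE (SE 0.19, adjusted p = 0.513 from edgeR). Without siNeg PE replicate 3 the PE value in siNeg cells was 0.57 and missed the call (adjusted p = 0.0504 from edgeR), and limma on log2(FPKM + 1) missed it as well (adjusted p = 0.0796). With that limma fit, Slc7a11 was instead lower after knockdown both without PE (-0.29, adjusted p = 0.0161) and with PE (-0.25, adjusted p = 0.0291). Of the 14 alternative settings, 3 lost the PE call in siNeg cells, with an adjusted p of up to 0.125 over the edgeR, DESeq2 and limma fits. Slc7a11 was called lower after knockdown in 3 of them without PE and in 2 with PE. Slc7a11 rested on 107 to 281 counts per sample, the fewest of the 10 genes.

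Chac1 had 41.7, 45.1 and 45.4 CPM in siNeg, 66.9, 63.2 and 55.6 in siSlc39a2, 45.5, 41.9 and 37.8 in siNeg PE, and 34.9, 31.1 and 28.2 in siSlc39a2 PE. Its siSlc39a2 samples were the highest and its siSlc39a2 PE samples the lowest, both apart from every other sample. Knockdown alone raised Chac1 to 140.5% of siNeg (log2 fold change 0.49, SE 0.10, adjusted p = 0.00118 from edgeR). With PE present, the same knockdown lowered it to 75.2% of siNeg PE (log2 fold change -0.41, SE 0.10, adjusted p = 0.00346 from edgeR). PE brought Chac1 to 50.7% of its level in siSlc39a2 cells (log2 fold change -0.98, SE 0.10, adjusted p = 5.85e-06 from edgeR), while in siNeg cells it gave -0.08 (95% confidence interval -0.29 to 0.14).

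Trib3 and Sesn2 act as brakes. The pseudokinase TRIB3 binds ATF4 and dampens its activity, and SESN2 senses leucine and restrains the growth kinase complex mTORC1. Trib3 had 59.2, 58.7 and 53.9 CPM in siNeg, 58.2, 53.6 and 47.5 in siSlc39a2, 58.6, 51.8 and 49.7 in siNeg PE, and 35.0, 30.7 and 27.3 in siSlc39a2 PE. The siSlc39a2 PE samples lay below all others, and the other 3 groups overlapped. Knockdown with PE lowered Trib3 to 58.1% of siNeg PE (log2 fold change -0.78, SE 0.10, adjusted p = 4.41e-05 from edgeR), and PE lowered it to 58.4% in siSlc39a2 cells (log2 fold change -0.78, SE 0.10, adjusted p = 5.42e-05 from edgeR). Either condition alone left it at -0.11 (knockdown, 95% confidence interval -0.33 to 0.11) and -0.10 (PE, 95% confidence interval -0.32 to 0.12).

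Sesn2 had 175.7, 159.4 and 160.7 CPM in siNeg, 180.7, 165.6 and 159.0 in siSlc39a2, 166.4, 151.4 and 136.7 in siNeg PE, and 109.8, 95.4 and 92.0 in siSlc39a2 PE. The pattern was that of Trib3, with the siSlc39a2 PE samples below all others and overlap among the rest. Knockdown with PE lowered Sesn2 by the log2 value of -0.61 (SE 0.09, adjusted p = 8.27e-05 from edgeR), and PE in siSlc39a2 cells gave -0.77 (SE 0.09, adjusted p = 1.65e-05 from edgeR). Knockdown alone gave 0.03 (95% confidence interval -0.16 to 0.22). PE alone gave -0.13 (95% confidence interval -0.31 to 0.06). Its expected count was whole in 9 of 12 samples, so that a small share of its reads may belong elsewhere.

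**Figure D2:**
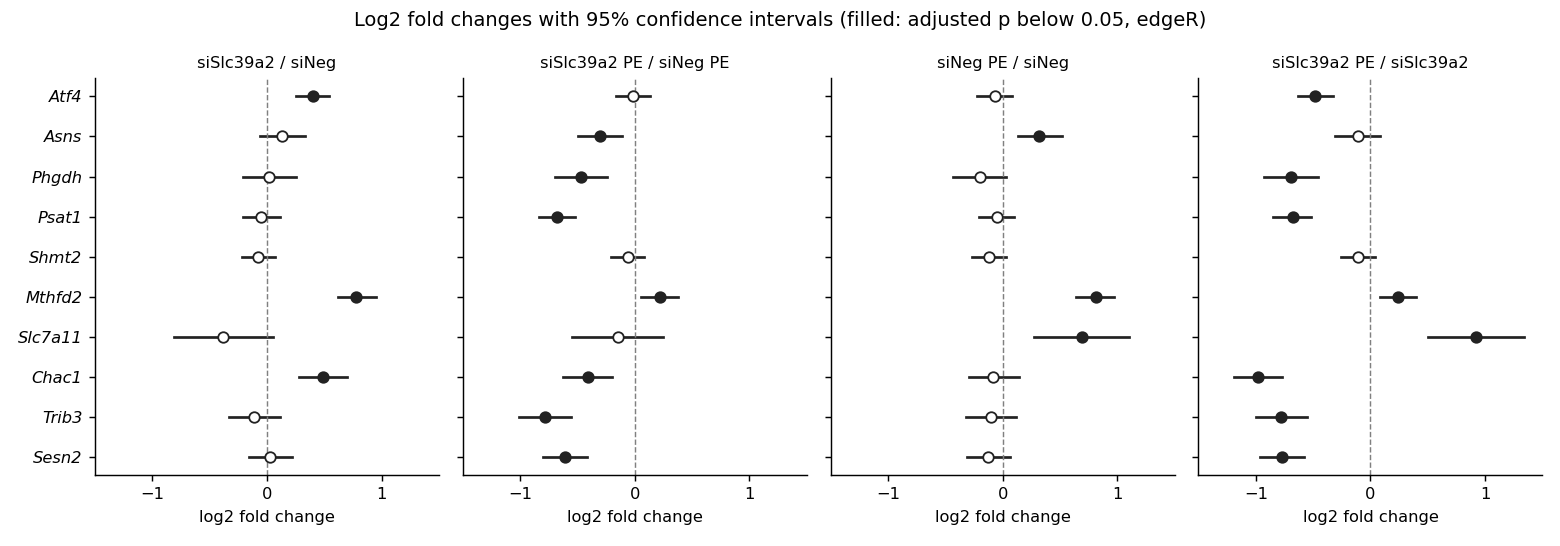
Log2 fold change (horizontal axes) of the 10 genes in the 4 comparisons, with 95% confidence intervals as lines; filled points passed an adjusted p of 0.05 in edgeR. In the panels of siSlc39a2 PE against siNeg PE and of siSlc39a2 PE against siSlc39a2, Psat1, Phgdh, Chac1, Trib3 and Sesn2 lie below 0. Their intervals for PE alone include 0.

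Whether the knockdown effect itself differed with PE was tested by the interaction, the log2 fold change of knockdown with PE less that without PE. It was negative and called for 6 of the 10 genes (Atf4, Psat1, Mthfd2, Chac1, Trib3 and Sesn2), while 3.61% of all genes tested were called, 1.88% as lower and 1.73% as higher. The 10 genes were chosen with earlier results of these data known, so this contrast is a description and not a test. None of the 10 was past an absolute value of 1 as well, as were 0.988% of all genes, with the main edgeR fit, DESeq2 or limma. With 1 library left out, the interaction of Chac1 reached -1.03 in edgeR. Its adjusted p was at most 0.0144 over all 19 alternatives of edgeR, DESeq2 and limma. At an unadjusted p below 0.05 in edgeR, 8 of the 10 genes were below 0, and the share of all genes at this limit was not counted. Chac1 had the largest value, -0.90 (SE 0.14, adjusted p = 0.0033 from edgeR), which put siSlc39a2 PE at 53.5% of the level that the sum of both log2 changes would give (95% confidence interval of this ratio 0.434 to 0.66). Psat1 gave -0.63 (SE 0.10, adjusted p = 0.00478), Mthfd2 -0.57 (SE 0.11, adjusted p = 0.0103), Sesn2 -0.64 (SE 0.12, adjusted p = 0.0124), Trib3 -0.68 (SE 0.15, adjusted p = 0.0226) and Atf4 -0.41 (SE 0.10, adjusted p = 0.0344), all from edgeR. The negative value came from different patterns among these genes. Mthfd2 rose with each condition and rose less than the sum with both. Atf4 rose with knockdown alone and was not called with knockdown in PE, whereas Chac1 rose with knockdown alone and fell with knockdown in PE. Psat1, Trib3 and Sesn2 fell where both were applied and were not called with either alone. For Sesn2 this held in edgeR without the replicate number as a block, since PE alone was called with it (-0.13, adjusted p = 0.0326).

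Asns (-0.43, SE 0.13, adjusted p = 0.0877) and Phgdh (-0.49, SE 0.15, adjusted p = 0.104) missed the interaction call in edgeR but passed it in DESeq2 (adjusted p = 0.0216 and 0.0308). Both also passed in edgeR without siSlc39a2 PE replicate 1 (adjusted p = 0.0257 and 0.0277). Shmt2 gave 0.01 (95% confidence interval -0.20 to 0.22) and Slc7a11 0.23 (95% confidence interval -0.36 to 0.82). The interaction of Atf4 lost its call in edgeR when any 1 of 8 libraries was left out, namely siNeg replicates 2 and 3, siNeg PE replicates 1 and 2, siSlc39a2 PE replicates 2 and 3, and siSlc39a2 replicates 1 and 2 (-0.41 to -0.36, adjusted p between 0.0663 and 0.0978). That of Trib3 lost it without any 1 of the same libraries other than siSlc39a2 PE replicate 3, 7 in all (-0.70 to -0.60, adjusted p between 0.0524 and 0.0727). Psat1, Mthfd2, Chac1 and Sesn2 kept theirs whichever of the 12 libraries was left out.

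**Figure D3:**
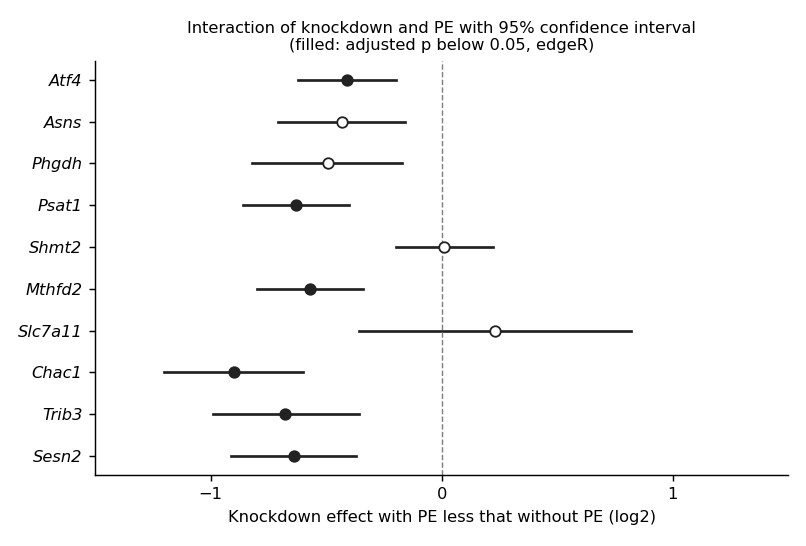
Interaction of knockdown and PE for each of the 10 genes (horizontal axis, log2, knockdown effect with PE less that without), with 95% confidence intervals as lines and calls by edgeR as filled points. The values run from -0.90 for Chac1 to 0.23 for Slc7a11, and the 6 filled points are all below 0.

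By group means of CPM, 7 of the 10 genes were lowest in siSlc39a2 PE, 2 in siNeg (Asns and Mthfd2) and 1 in siSlc39a2 (Slc7a11). For Atf4, Shmt2 and Asns the samples of the lowest group overlapped those of other groups. The share of all genes lowest in each group was not counted, so the 7 cannot be set against it. Replicates of a group also differed in the same way for most of the genes. Replicate 3 of siSlc39a2 PE was its group's lowest sample for 8 of the 10 genes, replicate 3 of siSlc39a2 for 8, and replicate 3 of siNeg PE for 7, whereas in siNeg replicate 1 was lowest for 6. Without replicate 3 of siSlc39a2 PE the log2 fold changes of knockdown with PE were -0.66 for Psat1, -0.36 for Phgdh, -0.34 for Chac1, -0.70 for Trib3 and -0.56 for Sesn2, and all 5 were still called by edgeR.

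The mRNA of Atf4 and the mean of the other 9 genes did not keep a fixed distance. The mean log2 CPM of the 9 genes was 6.14 in siNeg, 6.23 in siSlc39a2, 6.26 in siNeg PE and 5.89 in siSlc39a2 PE, beside 8.73, 9.13, 8.66 and 8.65 for Atf4. Their difference was -2.60 ± 0.07 in siNeg, -2.90 ± 0.04 in siSlc39a2, -2.40 ± 0.04 in siNeg PE and -2.75 ± 0.03 in siSlc39a2 PE (log2, SD, n = 3). The samples of these groups did not overlap, and siSlc39a2 stood lowest. Between siNeg PE and siSlc39a2 PE, Atf4 itself was at a like level (405.9 ± 23.1 and 401.5 ± 31.6 CPM, SD, n = 3) while the mean of the 9 genes was lower in siSlc39a2 PE.

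**Figure D4:**
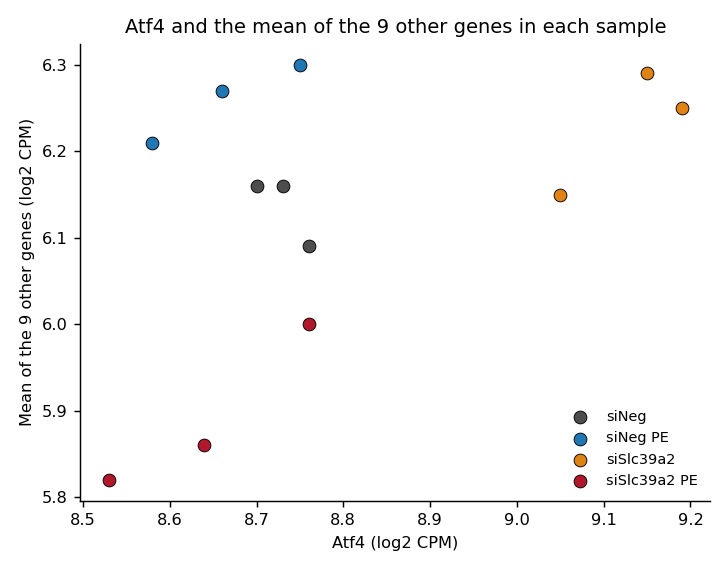
Each point is 1 of the 12 samples, with Atf4 (log2 CPM) on the horizontal axis and the mean of the 9 other genes (log2 CPM) on the vertical axis; colours mark the 4 groups. The siSlc39a2 samples lie to the right at an Atf4 level above 9.0, and the siSlc39a2 PE samples lie at the bottom with an Atf4 level within the range of both siNeg groups or just below it.

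Levels of different genes were compared in FPKM, which accounts for transcript length. In siNeg, Atf4 had 305.1 ± 1.97 FPKM, followed by Phgdh with 90.7 ± 1.77, Asns with 69.7 ± 6.03 and Shmt2 with 64.5 ± 2.95 (SD, n = 3). Sesn2 (40.5 ± 0.4), Trib3 (40.4 ± 1.46) and Mthfd2 (38.1 ± 3.09 FPKM) came next, then Psat1 (30.4 ± 2.87) and Chac1 (28.2 ± 1.95 FPKM). Slc7a11 was far below all of them with 0.903 ± 0.0404 FPKM. The samples of Asns and Shmt2 overlapped, as did those of Sesn2 with Trib3, Trib3 with Mthfd2, and Psat1 with Chac1. In siSlc39a2 PE, Mthfd2 had moved to the second place with 82.5 ± 6.68 FPKM, where it overlapped Asns (74.8 ± 7.75 FPKM), and Phgdh (60.5 ± 9.07 FPKM) overlapped both Asns and Shmt2.

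The genes of most similar pattern were sought for Slc7a11 and Mthfd2, whose group means had the widest range on the log2 CPM scale, 1.04 and 1.02. Likeness was the root mean square difference of log2 CPM after centring each gene on its mean over the 12 samples, over the 11747 genes whose mean log2 CPM exceeded 1. Mthfd2 was followed most closely by Txnrd1, a thioredoxin reductase, at 0.09, then by F11r at 0.13 and Art4 at 0.14, where the median gene was at 0.48. For Slc7a11, Cbx5, Tacc1 and Tmtc2 were each at 0.14, where the median gene was at 0.54.

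Beyond the 10 genes, 9 lists of neighbouring genes were counted in the same fit. Of their 107 genes tested, 46 rose and 22 fell with knockdown without PE (22.8% and 26.4% of all genes tested did so), and 38 rose and 26 fell with knockdown in PE (29.2% and 28.1%). With PE, 33 rose and 23 fell in siNeg (24.0% and 25.7%), and 34 rose and 34 fell in siSlc39a2 (30.7% and 29.3%). The percentages in brackets beside the counts of each list below are these shares of all genes tested, higher first. The interaction was called for 6, all lower, where 1.88% of all genes were lower (Atf5, Cebpb, Ddit4, Ppp1r15a, Slc6a9 and Herpud1), of which Cebpb, at -0.69, was named after its value was seen. The lists hold genes that ATF4 shares with other regulators, and no list is evidence of its activity.

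Among 14 other ATF4-linked stress regulators and secreted factors, 7 rose and 2 fell with knockdown without PE (22.8% and 26.4%), with a median log2 fold change of 0.25. With knockdown in PE, 6 rose and 6 fell (29.2% and 28.1%, median -0.09), and with PE in siSlc39a2 cells 2 rose and 9 fell (30.7% and 29.3%, median -0.49). Atf3, a stress-induced transcription factor, had 6.32, 8.11 and 7.13 CPM in siNeg and 35.6, 34.9 and 29.7 CPM in siSlc39a2, a log2 fold change of 2.22 (SE 0.11, adjusted p = 3.97e-09 from edgeR). Ddit3, which encodes the stress factor CHOP, had 56.1, 47.7 and 42.6 CPM in siNeg and 121.1, 125.2 and 110.5 CPM in siSlc39a2, a log2 fold change of 1.29 (SE 0.11, adjusted p = 6.71e-07 from edgeR). Both stayed above their siNeg PE samples with knockdown in PE, at 1.81 (adjusted p = 3.17e-08) and 0.72 (adjusted p = 9.9e-05 from edgeR). Their expected counts were whole in 7 and 10 of 12 samples, so that some of their reads are shared with other sequences.

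Ppp1r15a (GADD34, which guides dephosphorylation of eIF2) had 77.1, 74.5 and 72.5 CPM in siNeg, 169.7, 160.2 and 138.0 in siSlc39a2, 69.4, 69.4 and 70.1 in siNeg PE, and 96.9, 98.5 and 96.5 in siSlc39a2 PE. The siSlc39a2 samples were highest and the siSlc39a2 PE samples next, both apart from the rest. Knockdown raised Ppp1r15a by 1.06 without PE (SE 0.07, adjusted p = 8.18e-08) and by 0.48 with PE (SE 0.07, adjusted p = 9.82e-05 from edgeR). Atf5, a relative of Atf4, had 666.7, 619.2 and 571.2 CPM in siNeg, 706.9, 692.4 and 599.6 in siSlc39a2, 587.7, 496.3 and 442.7 in siNeg PE, and 365.3, 351.4 and 306.2 in siSlc39a2 PE. It gave -0.58 for knockdown in PE (SE 0.11, adjusted p = 0.000553) and 0.11 for knockdown without PE (adjusted p = 0.429 from edgeR). For PE in siSlc39a2 cells Atf5 gave -0.97 (SE 0.11, adjusted p = 1.26e-05 from edgeR). Ddit4, an mTORC1 inhibitor, gave -0.96 for knockdown in PE (SE 0.11, adjusted p = 1.11e-05) and -1.0 for PE in siSlc39a2 cells (SE 0.11, adjusted p = 1.01e-05 from edgeR). Fgf21, a secreted metabolic hormone, went the other way from Atf3, with -1.89 for knockdown without PE (SE 0.30, adjusted p = 0.00023) and -1.88 with PE (SE 0.33, adjusted p = 0.000409 from edgeR), at 1.96 ± 0.489 CPM or less (SD, n = 3). Stc2, a secreted glycoprotein, gave -0.55 for knockdown in PE (adjusted p = 0.000391) and -1.0 for PE in siSlc39a2 cells (adjusted p = 3.97e-06 from edgeR).

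Of 8 amino acid transporters, 3 rose and 2 fell with knockdown without PE (22.8% and 26.4%, median 0.11), and 1 rose and 3 fell with knockdown in PE (29.2% and 28.1%, median -0.08). These counts are near the shares of all genes. Slc7a5, which imports large neutral amino acids, fell in both, by the log2 values of -0.38 (SE 0.07, adjusted p = 0.000959) and -0.45 (SE 0.07, adjusted p = 0.000236 from edgeR). Slc7a3, an importer of cationic amino acids, did so as well, with -0.53 (adjusted p = 5.18e-05) and -0.46 (adjusted p = 0.000132 from edgeR). Slc6a9, a glycine transporter, had 101.7 ± 9.13 CPM in siNeg PE and 74.9 ± 6.09 CPM in siSlc39a2 PE (SD, n = 3), with -0.44 on the log2 scale (SE 0.08, adjusted p = 0.000647 from edgeR), and its counts were whole in 0 of 12 samples.

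Among 7 tested genes of other amino acid synthesis enzymes, 1 rose and 5 fell with knockdown without PE (22.8% and 26.4%, median -0.36), and 4 fell and the other 3 did not pass the test with knockdown in PE (28.1% of all genes fell, median -0.36). The gene that rose was Psph, the phosphatase of the last step of serine synthesis (0.40, SE 0.11, adjusted p = 0.0108 from edgeR), which was named after its value was seen. Pycr1, an enzyme of proline synthesis, gave -0.69 without PE (SE 0.11, adjusted p = 0.000193) and -0.39 with PE (SE 0.11, adjusted p = 0.00695 from edgeR). Gpt2, a mitochondrial alanine aminotransferase, gave -0.31 (adjusted p = 0.00865) and -0.58 (adjusted p = 9.86e-05 from edgeR). Cth, an enzyme of cysteine synthesis, gave -0.54 without PE (SE 0.19, adjusted p = 0.0339 from edgeR), with whole counts in 0 of 12 samples, and lost this call when any 1 of siNeg replicates 1, 2 and 3 or siSlc39a2 replicates 1 and 3 was left out (-0.55 to -0.40, adjusted p between 0.0592 and 0.161).

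Among 14 other folate one-carbon and glycine cleavage genes, 4 rose and 4 fell with knockdown without PE (22.8% and 26.4%, median -0.12), which is near the shares of all genes, and 5 rose and 2 fell with PE in siNeg (24.0% and 25.7%, median 0.10). Mthfd2l, the isozyme of Mthfd2, had 0.948, 1.40 and 1.42 CPM in siNeg, 3.01, 3.32 and 3.63 in siSlc39a2, 2.21, 2.60 and 1.83 in siNeg PE, and 5.86, 5.45 and 6.0 in siSlc39a2 PE. No 2 of these groups overlapped. Its log2 fold changes were 1.40 (SE 0.19, adjusted p = 6.33e-05) for knockdown and 0.82 (SE 0.20, adjusted p = 0.00456) for PE in siNeg, with an interaction of -0.02 (95% confidence interval -0.54 to 0.50, edgeR). Aldh1l2, a mitochondrial folate dehydrogenase, fell with knockdown by the log2 values of -1.0 without PE (SE 0.09, adjusted p = 1.47e-06) and -0.94 with PE (SE 0.09, adjusted p = 2.57e-06 from edgeR). Mthfd1l, which releases formate from mitochondrial folate, rose with PE in siNeg (0.73, adjusted p = 4.85e-05) and in siSlc39a2 cells (0.91, adjusted p = 4.62e-06 from edgeR). Gldc, a glycine cleavage enzyme, rose with knockdown (1.57, SE 0.30, adjusted p = 0.00098 from edgeR), with at most 1.42 CPM in any sample.

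**Figure D5:**
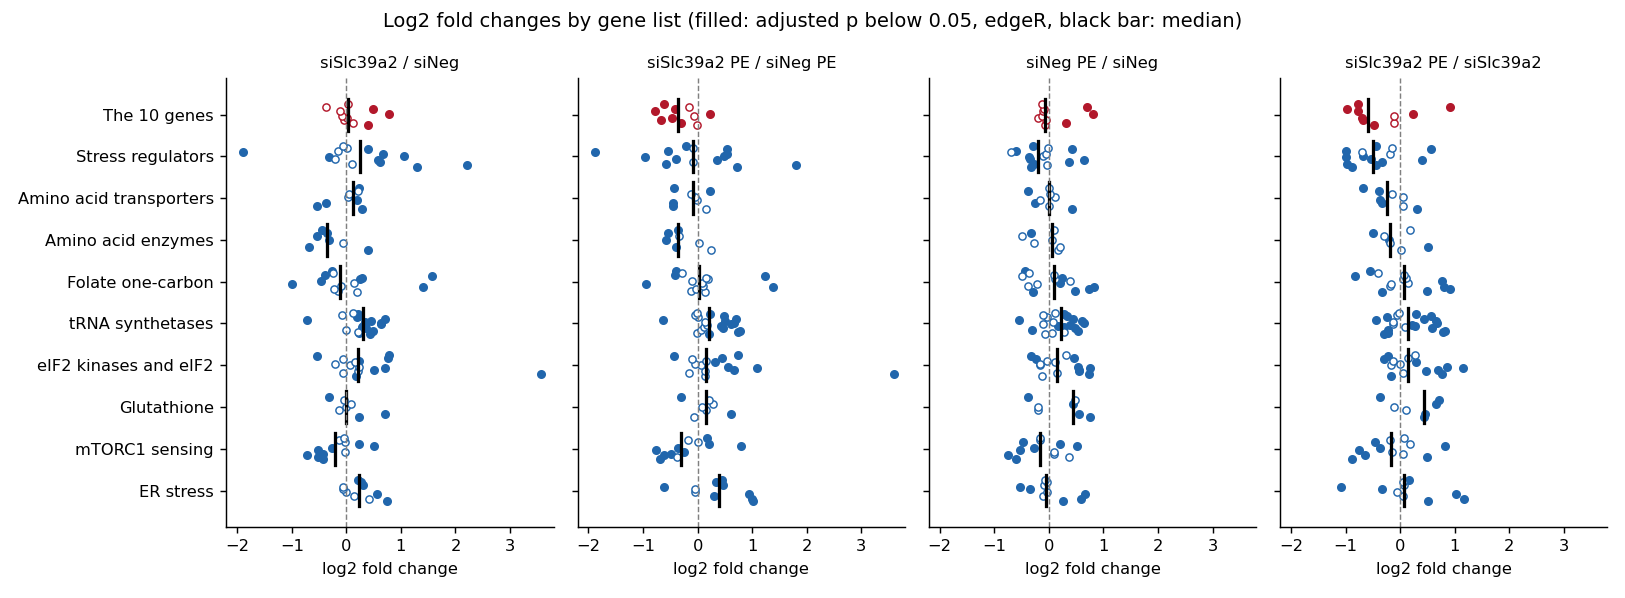
Log2 fold change (horizontal axes) of the 10 genes and of each gene in the 9 lists, in the 4 comparisons; filled points passed an adjusted p of 0.05 in edgeR and the black bar is the median of the list. The point near 3.6 is Eif2ak2, and the median of the 10 genes is lowest, at -0.58, for siSlc39a2 PE against siSlc39a2.

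Of 20 cytosolic aminoacyl-tRNA synthetases, which load amino acids onto tRNA, 15 rose and 1 fell with knockdown without PE (22.8% and 26.4%, median 0.30), and 11 rose and 1 fell with knockdown in PE (29.2% and 28.1%, median 0.21). Qars was the one that fell, at -0.73 (SE 0.07, adjusted p = 1.92e-06) and -0.63 (SE 0.07, adjusted p = 7.43e-06 from edgeR). Dars and Eprs gave 0.74 (SE 0.15, adjusted p = 0.00111) and 0.78 (SE 0.16, adjusted p = 0.00122 from edgeR) with knockdown in PE. With PE in siSlc39a2 cells, where 6 of the 10 ATF4 genes fell, 10 synthetases rose and 5 fell (30.7% and 29.3%, median 0.15).

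Of 15 genes for the eIF2 kinases, eIF2, eIF2B and eIF2 phosphatase regulators, 7 rose and 1 fell with knockdown, both without PE (22.8% and 26.4%, median 0.21) and with it (29.2% and 28.1%, median 0.15). Eif2ak2, the kinase activated by double-stranded RNA (PKR), had 8.33, 10.5 and 8.47 CPM in siNeg and 102.9, 94.0 and 125.5 CPM in siSlc39a2, a log2 fold change of 3.56 (SE 0.23, adjusted p = 6.88e-08 from edgeR). With PE it gave 3.60 (SE 0.23, adjusted p = 4.99e-08 from edgeR), and its counts were whole in 2 of 12 samples. Eif2ak3 (PERK) gave -0.06 and -0.16 and Eif2ak4 (GCN2) gave 0.21 and 0.13 for knockdown without and with PE, none of them called by edgeR. Eif2ak1 (HRI), the haem-regulated kinase, rose with knockdown without PE (0.18, SE 0.07, adjusted p = 0.042) and gave 0.14 with PE (adjusted p = 0.0987 from edgeR). The call of Eif2ak1 was lost without siNeg replicate 2, siNeg replicate 3 or siSlc39a2 replicate 2 (adjusted p up to 0.142 from edgeR). These last 3 kinases were named after their values were seen. Eif2s2, a subunit of eIF2, gave 0.71 (SE 0.16, adjusted p = 0.00281) and 1.09 (SE 0.16, adjusted p = 8.71e-05 from edgeR). Eif2s3, another subunit, gave 0.56 with PE (adjusted p = 0.00438). Ppp1r15b gave 0.76 (adjusted p = 4.56e-05) and 0.45 (adjusted p = 0.00192), and Impact, a GCN2 inhibitor, 0.78 (adjusted p = 0.00142) and 0.74 (adjusted p = 0.00135 from edgeR).

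Of 7 glutathione genes, 3 rose and 1 fell with PE in siNeg (24.0% and 25.7%, median 0.45), and 4 rose and 1 fell with PE in siSlc39a2 cells (30.7% and 29.3%, median 0.44), the comparisons in which Slc7a11 rose as well. Gclc and Gclm, the subunits of the enzyme that starts glutathione synthesis, gave 0.75 (SE 0.09, adjusted p = 2.76e-05) and 0.56 (SE 0.09, adjusted p = 0.000372) for PE in siNeg, and Chac2, a relative of Chac1, gave 0.72 (SE 0.20, adjusted p = 0.00678 from edgeR) for PE in siSlc39a2 cells. With knockdown, 2 of the 7 rose and 1 fell without PE (22.8% and 26.4%, median 0.00).

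Of 12 genes of amino acid sensing towards mTORC1, 2 rose and 6 fell with knockdown without PE (22.8% and 26.4%, median -0.21), and 3 rose and 6 fell with knockdown in PE (29.2% and 28.1%, median -0.30). Sesn1, a relative of Sesn2, had 77.5 ± 4.16 CPM in siNeg, 57.7 ± 1.04 in siSlc39a2, 50.6 ± 5.41 in siNeg PE and 31.3 ± 2.54 in siSlc39a2 PE (SD, n = 3). It fell with knockdown alone (-0.43, SE 0.09, adjusted p = 0.00121) and with PE alone (-0.61, SE 0.09, adjusted p = 0.00013), and its interaction was -0.27 (SE 0.12, adjusted p = 0.305 from edgeR). Nprl2, part of an mTORC1 inhibitor complex, gave -0.52 and -0.76 with knockdown without and with PE (adjusted p = 0.00109 and 6.32e-05 from edgeR, counts whole in 1 of 12 samples). Mios, part of a complex that relieves this inhibition, gave 0.79 with knockdown in PE (SE 0.16, adjusted p = 0.00097 from edgeR).

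Of 10 ER stress chaperones and effectors, 5 rose and the other 5 did not pass the test with knockdown without PE (22.8% of all genes rose, median 0.24), and 7 rose and 1 fell with knockdown in PE (29.2% and 28.1%, median 0.39). Hspa5, the main chaperone of the endoplasmic reticulum (BiP), had 496.8 ± 15.4 CPM in siNeg, 838.4 ± 71.3 in siSlc39a2, 593.9 ± 47.3 in siNeg PE and 1205.6 ± 96.1 in siSlc39a2 PE (SD, n = 3). Knockdown raised it by 0.75 without PE (SE 0.08, adjusted p = 7.91e-06) and by 1.02 with PE (SE 0.08, adjusted p = 4.69e-07 from edgeR). Dnajb9 and Hsp90b1 gave 0.94 (SE 0.14, adjusted p = 0.000136) and 1.00 (SE 0.18, adjusted p = 0.000449 from edgeR) with knockdown in PE. Calr gave 0.45 (adjusted p = 5.2e-05) and Creld2 0.46 (adjusted p = 0.000203 from edgeR) in the same comparison. Herpud1, which acts in the disposal of misfolded proteins, fell where these chaperones rose, by the log2 value of -0.61 (SE 0.10, adjusted p = 0.00017 from edgeR). Xbp1 did not pass the test with knockdown (-0.06 and -0.05) and fell with PE in siNeg (-0.35, adjusted p = 0.00158 from edgeR). Hspa5 was thus highest in the siSlc39a2 PE samples, the ones in which Psat1, Phgdh, Chac1, Trib3 and Sesn2 were lowest.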

How the data were processed

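RNA-seq of NRVMs in 4 groups of 3 biological replicates was analysed from gene tables. The authors deposited expected counts per gene, not normalized, of which 78.7% were whole numbers, and FPKM values of the same genes. The submitters' processing notes name HISAT, Bowtie2 and the build Rnor_6.0, and the program that counted, the annotation and the strand setting are not given in the sources used here. The paper names limma after normalizeBetweenArrays but not the values it was run on. Total expected counts were between 24065539 and 28603854 per sample.

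Expected counts were rounded to whole numbers, filtered by filterByExpr (13967 of 18483 genes kept), normalized by TMM and fitted in 1 model of 4 groups with edgeR 4.0.16 in R 4.3.3 (8 residual degrees of freedom). Its quasi-likelihood F-test gave the comparisons, p-values were adjusted over all genes tested by the method of Benjamini and Hochberg, and confidence intervals are at 95%. The fits were tested on simulated data. Within groups, the chi-square of any 2 samples over its degrees of freedom was 4.73 to 33.3. No sample was thus a copy of another in its group, and samples of different groups were not compared in this way.

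The 10 genes and the lists were chosen with earlier results of these data known. Named were the 10 genes, Slc39a2 and, of each list, genes called at an adjusted p below 0.05 whose log2 fold change exceeded 1 in size in any comparison of 2 groups, plus up to 3 further genes with the largest called change, except for a list gene that is not reported here. For the 2 members of widest range, the 3 genes of most similar pattern were named. Other settings tried were leaving out each sample in turn, the replicate number as a block, RLE size factors, no filter on low counts, a fit of only the groups compared, DESeq2 1.42.0, and limma 3.58.1 with quantile normalization of log2 values (of counts with 1 added, and of FPKM with 1 or 0.1 added).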

Additional observations from a re-analysis of the deposited data

Results flagged for a closer look

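Of the 10 ATF4 genes and the 107 genes of the lists, there were 12 for which the knockdown effect with PE differed from that without PE by a test of the difference itself (the interaction in edgeR, adjusted over all genes tested). Of the 10 ATF4 genes these were Chac1 (-0.90), Trib3 (-0.68), Sesn2 (-0.64), Psat1 (-0.63), Mthfd2 (-0.57) and Atf4 (-0.41). Of the genes of the lists these were 6, where 3.61% of all genes tested were called, namely Cebpb (-0.69, adjusted p = 0.0175), Atf5 (-0.68, adjusted p = 0.0249), Slc6a9 (-0.68, adjusted p = 0.00679), Ddit4 (-0.64, adjusted p = 0.0361), Ppp1r15a (-0.58, adjusted p = 0.00611) and Herpud1 (-0.54, adjusted p = 0.0447). All 12 values were below 0. The expected counts of Atf4 and Slc6a9 were whole in 0 of 12 samples, so that their reads are shared with other sequences.

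The call was lost in edgeR when any 1 of 7 libraries was left out for Atf5 (siNeg replicates 2 and 3, siNeg PE replicates 1 and 2, siSlc39a2 PE replicate 2, siSlc39a2 replicates 1 and 2, with adjusted p up to 0.0792). For Ddit4 and Herpud1 it was lost without any 1 of the same libraries or siSlc39a2 PE replicate 3, with adjusted p up to 0.101 and 0.123. For Cebpb it was lost without siNeg PE replicate 1, siNeg PE replicate 2, siSlc39a2 PE replicate 2 or siSlc39a2 replicate 1, with adjusted p up to 0.0556. Ppp1r15a and Slc6a9 kept theirs in all 19 alternatives.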

How the results depend on the processing

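The number of the 10 genes called moved by over 1.5 times in 1 case: with the replicate number as a block, PE in siNeg cells gave 5 in place of 3, Phgdh and Sesn2 being added as lower. The block also added Asns and Phgdh to the interaction (8 in place of 6), as did DESeq2 and all 3 limma fits, and it changed no other call of the 10 genes. Same-numbered samples deviated together only weakly on average (mean correlation 0.0905, from -0.0904 to 0.32 over 18 pairs, against -0.0452 over 36 pairs of different numbers). Of 12 samples, 7 correlated best with a sample of their own number. Replicate 1 of siNeg, siNeg PE and siSlc39a2 PE deviated together more, with 0.315 (siNeg and siNeg PE), 0.228 (siNeg and siSlc39a2 PE) and 0.32 (siNeg PE and siSlc39a2 PE). Replicate 1 of siSlc39a2 gave -0.0107, -0.00252 and 0.0229 with them, in this order. The main fit did not use the numbers as pairs, and whether same-numbered samples were prepared together was not tested. When single replicates were left out, the count was 3 for knockdown without PE throughout, 2 to 4 for PE in siNeg, 6 in place of 7 for knockdown with PE whichever of its 6 libraries was left out (Asns or Mthfd2 losing its call), 7 to 9 for PE in siSlc39a2 and 4 to 8 for the interaction.

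Of 750 single-gene values under the alternatives, 672 kept their direction and their side of the threshold, 27 lost and 23 gained the call, and 28 changed sign, none of which had been called. With limma on FPKM with 1 or 0.1 added and on counts with 1 added, in this order, Atf4 was at 0.11, 0.11 and 0.05 for PE in siNeg and at 0.04, 0.04 and 0.03 for knockdown with PE, and in the first 2 of these fits Psat1 was at 0.02 and Shmt2 at 0.00 for PE in siNeg. The interaction of Shmt2 was -0.01 with DESeq2 and RLE size factors, -0.03 with no filter, and -0.09, -0.09 and -0.10 with limma. With replicates left out, the ranges that crossed 0 were -0.10 to 0.01 (Psat1), -0.02 to 0.13 (Phgdh), -0.11 to 0.02 (Shmt2), -0.18 to 0.01 (Trib3) and -0.03 to 0.12 (Sesn2) for knockdown without PE, -0.08 to 0.04 (Atf4) for knockdown with PE, and -0.09 to 0.07 (Shmt2) and -0.02 to 0.35 (Slc7a11) for the interaction. The causes were not tested. Of 123 called values of named list genes, 100 kept their call under every alternative and none changed sign.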
